A study of Mus musculus with 9 samples.

Results

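The FGF-ERK feedback genes are the 10 genes Fgf4, Fgfr1, Fgfr2, Etv4, Etv5, Spry1, Spry2, Spry4, Dusp4 and Dusp6, chosen by name as the ligand, receptors, transcriptional targets and inhibitors of 1 signalling pathway. All 10 were found among the 52636 Ensembl gene IDs of a table of RNA-seq read counts. They were measured in 3 lines of mouse embryonic stem (ES) cells, which are grown from the early embryo and can form all tissues of the body. The libraries were made from ribosomal RNA-depleted total RNA of cells sorted as PECAM-positive and PDGFRA-negative, with 3 libraries per line. The line 44C6 is titled NanogKO and has the genotype label N{delta}; it is called the Nanog-null line here. The line 44J is titled NanogKO:Esrrb and is called the Esrrb line, and the line 44JN is titled NanogKO:Esrrb:Nanog and is called the Esrrb+Nanog line. The labels give these last lines the same genotype, N{delta}:cE:iN, so the titles alone separate them; both are called lines with Esrrb below, although the Nanog-null line also had Esrrb reads. The medium held serum and the cytokine LIF, which keeps ES cells self-renewing, and no line was treated. Each group is 1 line, so an added gene and other differences between lines cannot be told apart. The labels do not say whether replicates are separate cultures, so the spread behind each p-value is that among libraries and may be technical.

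ES cells secrete FGF4, which binds FGF receptors and signals through RAS, RAF and MEK to the kinase ERK; the pathway moves ES cells toward differentiation, and in the blastocyst it directs inner cell mass cells to primitive endoderm. ERK activity raises the transcription of its own brakes, among them Sprouty proteins and the DUSP phosphatases, and of the ETS factors ETV4 and ETV5, so these transcripts are often read as a record of signalling. NANOG and ESRRB are transcription factors of the ES cell self-renewal network.

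The sequence upstream of the start site is shown for 3 of the genes that rose and 2 of those that fell between the Nanog-null and Esrrb lines, so that the starts of members that moved in opposite directions can be read side by side. They are the 250 bases before the RefSeq start site (GRCm38.p6), given 5′ to 3′ on the gene's strand. Capitals mark every match, on either strand, to the motif CCAAT (which reads ATTGG on the other strand), to the motif GGGCGG (which reads CCGCCC there) or to the motif TATATA.
Fgf4, chr7:144861136-144861385, plus strand: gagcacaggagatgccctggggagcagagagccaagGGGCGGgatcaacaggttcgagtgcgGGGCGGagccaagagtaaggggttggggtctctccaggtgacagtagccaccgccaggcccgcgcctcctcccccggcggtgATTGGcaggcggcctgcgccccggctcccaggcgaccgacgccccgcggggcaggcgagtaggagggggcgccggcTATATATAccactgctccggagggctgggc
Dusp6, chr10:99262981-99263230, plus strand: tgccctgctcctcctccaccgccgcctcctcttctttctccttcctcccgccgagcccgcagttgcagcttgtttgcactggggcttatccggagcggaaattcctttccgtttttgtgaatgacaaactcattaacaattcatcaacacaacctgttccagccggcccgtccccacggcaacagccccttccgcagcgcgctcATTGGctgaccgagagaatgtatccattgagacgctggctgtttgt
Spry2, chr14:105896820-105897069, minus strand: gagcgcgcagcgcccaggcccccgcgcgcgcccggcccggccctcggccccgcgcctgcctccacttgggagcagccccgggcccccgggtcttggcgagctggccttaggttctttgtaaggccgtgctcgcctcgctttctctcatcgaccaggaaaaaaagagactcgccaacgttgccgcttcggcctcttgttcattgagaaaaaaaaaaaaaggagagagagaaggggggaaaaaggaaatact
Spry1, chr3:37639697-37639946, plus strand: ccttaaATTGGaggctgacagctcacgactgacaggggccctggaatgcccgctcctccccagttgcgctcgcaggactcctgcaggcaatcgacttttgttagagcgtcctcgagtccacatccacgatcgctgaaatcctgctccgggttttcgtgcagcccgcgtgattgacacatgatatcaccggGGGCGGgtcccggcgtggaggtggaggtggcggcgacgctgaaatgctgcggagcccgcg
Fgfr2, chr7:130266809-130267058, minus strand: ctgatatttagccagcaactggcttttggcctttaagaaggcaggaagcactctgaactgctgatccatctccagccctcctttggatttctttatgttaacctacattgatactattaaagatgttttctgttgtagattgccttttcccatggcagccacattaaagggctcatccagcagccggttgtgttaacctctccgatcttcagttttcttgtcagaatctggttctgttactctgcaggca
Promoter entries were found for 6 of the 10 genes, with 7 start sites; Fgfr1, Etv4, Spry4 and Dusp4 are named only. The Fgf4 window held GGGCGG at 2 places, ATTGG once and a run of overlapping TATATA matches from -30 to -23 relative to the start. Among 32851 promoter windows of the same length, 5.25% held TATATA, 33.8% held CCAAT and 32.7% held GGGCGG, counting both strands. The Spry1 window held ATTGG and GGGCGG once each, and the Dusp6 window held ATTGG at -46 to -42. Etv5 has 2 start sites; the first window held CCAAT at 3 places and GGGCGG at 3, and the second held ATTGG once. The windows of Spry2 and Fgfr2 held none of these. The ESRRB motif TCAAGGTCA (0.387% of all windows), the shorter AAGGTCA contained in it (4.08%), the ETS motif CCGGAAGT (2.88%) and TATAAA (12.4%) were also searched on both strands and had no match in the 7 windows. The motifs were chosen after the sequences had been seen, and a match is only a run of letters. The GC content of the Fgfr2 window was 44.0%, below the median of 52.4% over all windows, and that of the other 6 windows was between 56.4% and 71.2%.

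Library totals ran from 21808120 to 32496267 counts. Nanog was checked first: the Nanog-null libraries had 14.3, 14.3 and 16.0 CPM (counts scaled to library size), the Esrrb libraries 29.7, 35.1 and 30.4 and the Esrrb+Nanog libraries 222, 289.5 and 333. The sources used here do not give the deleted part of Nanog, and the remaining reads do not check the deletion. Esrrb averaged 276 ± 25.0 CPM, 803 ± 132 CPM and 1107 ± 47.9 CPM (SD, n = 3) in the same order of lines. The ES cell marker genes, 7 of 7 detected, were high in every line but not equal. They summed to 3604 to 3840 CPM across Nanog-null libraries, 4496 to 4618 in the Esrrb libraries and 3944 to 4186 in the Esrrb+Nanog libraries. In edgeR's test, described below, 4 of the 7 were higher and 0 lower in the Esrrb line than in the Nanog-null line. For Esrrb+Nanog against Nanog-null 3 were higher and 2 lower. All genes had 24.2% and 27.2% in each direction in these comparisons. For Esrrb+Nanog against Esrrb 0 of the ES cell markers were higher and 3 lower (42.9%), where all genes had 5.43% and 7.75%. That lower count was 1 or 2 when a library was left out. Of the sorting markers, Pecam1 was at 101 ± 8.61, 61.9 ± 8.68 and 49.8 ± 4.01 CPM, and Pdgfra at 2.29 ± 2.00, 10.4 ± 4.22 and 2.90 ± 1.05 CPM. All 10 FGF-ERK genes passed the low-count filter, which left 16198 genes. In bulk libraries such as these, fewer cells with a transcript and less transcript per cell cannot be told apart.

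Between the Nanog-null and Esrrb lines the 10 genes moved in both directions, and the Sprouty genes and the phosphatases each had members that rose and members that fell. Fgf4, Etv4, Etv5, Spry2, Spry4 and Dusp6 rose, Fgfr2, Spry1 and Dusp4 fell, and Fgfr1 did not pass the test. Thus 9 of 10 were called at an adjusted p under 0.05 (edgeR's quasi-likelihood test with Benjamini-Hochberg adjustment over all tested genes, used for every adjusted p below unless another tool is named), where 48.5% of all tested genes were called, 24.2% in each direction. The libraries of the lines did not overlap for those 9 genes, as for 58.4% of all tested genes. The median log2 fold change of the members was 0.62 against 0.01 over all tested genes, and the median absolute change was 1.08 against 0.32. The members, and the lists below, were chosen with earlier results of these data known. Their shares and medians therefore describe the set and do not test it. Between the Esrrb+Nanog and Esrrb lines 3 of 10 were called, all lower (Fgfr2, Dusp4 and Spry2), where 13.2% of all genes were called and 7.75% were called lower. At an unadjusted p under 0.05 no member was higher and 5 were lower, and DESeq2 called 0 higher and 4 lower. Shares of all tested genes under these criteria are not given here, so these counts cannot be set against them. The same holds for the unadjusted and DESeq2 counts of the lists below. The median absolute change there was 0.21 for the members and 0.17 for all genes. Between the Esrrb+Nanog and Nanog-null lines all 10 were called, 6 higher and 4 lower and none with overlapping libraries, where 54.4% of all genes were called, 27.2% in each direction, and 61.9% did not overlap; the median absolute changes were 1.03 and 0.37. These 3 comparisons share lines and are not independent of each other.

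**Figure D1:**
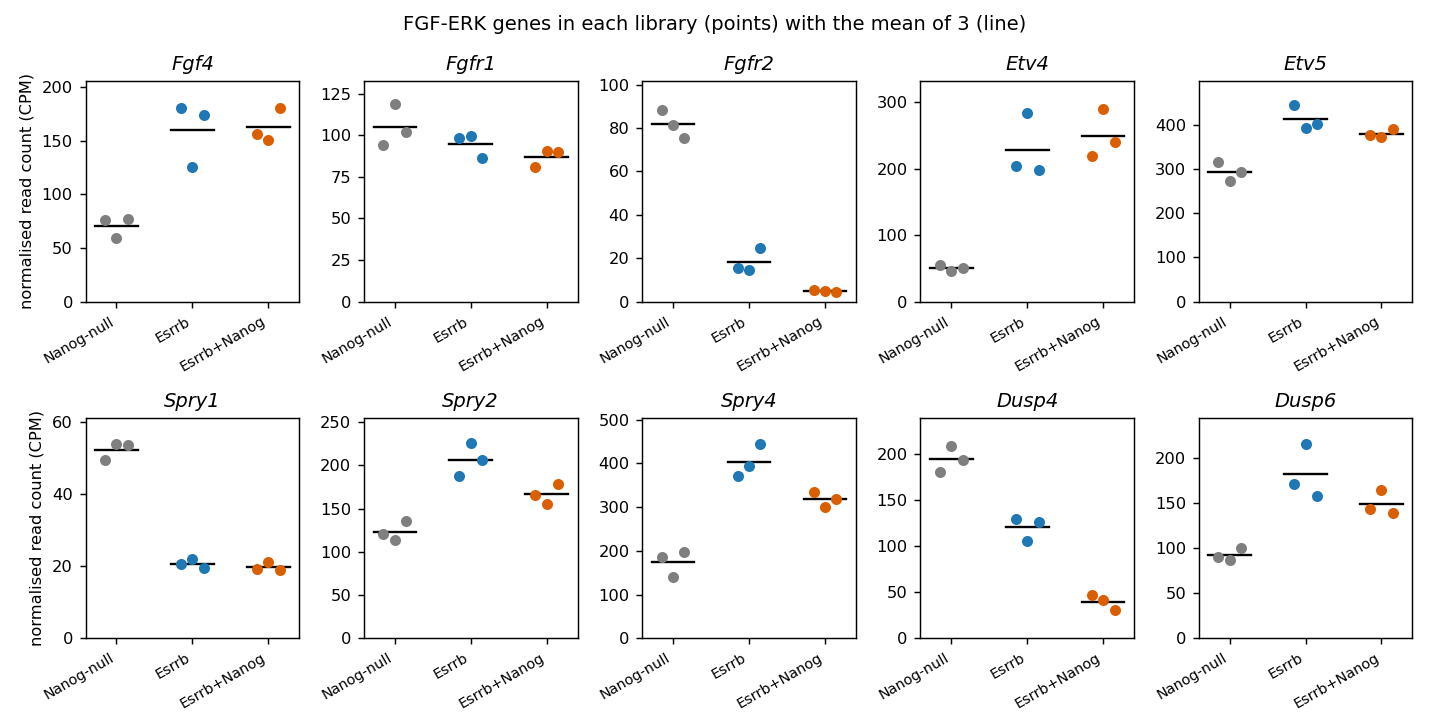
Normalised read count (CPM, vertical axis from 0) of each of the 10 genes in each of 3 libraries per line (points) with the mean (line). Fgf4, Etv4, Etv5, Spry2, Spry4 and Dusp6 sit higher in both lines with Esrrb than in the Nanog-null line, Fgfr2, Spry1 and Dusp4 sit lower, and the Fgfr1 points of neighbouring lines overlap.

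The plot of CPM by library shows the values given below gene by gene, from ligand to phosphatase. Fgf4, the FGF that ES cells make themselves, had 76.2, 59.4 and 76.5 CPM across Nanog-null libraries, 181, 125 and 174 in the Esrrb libraries and 156, 151 and 180.3 in the Esrrb+Nanog libraries. Every library with Esrrb was above every Nanog-null library, and the Esrrb and Esrrb+Nanog libraries overlapped. Fgf4 rose 2.26-fold from the Nanog-null to the Esrrb line (log2 fold change 1.18 ± 0.14 SE, adjusted p = 3.70e-05), and its level in the Esrrb+Nanog line differed from the Nanog-null line by a log2 fold change of 1.20 ± 0.14 (adjusted p = 2.38e-05). The difference between the lines with Esrrb was 0.02 ± 0.14 (adjusted p = 0.933), and its sign changed without Esrrb replicate 2 (-0.13) or without Esrrb+Nanog replicate 3 (-0.06).

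Among the receptors, Fgfr2 changed more than any other member. FGFR2 is the receptor of primitive endoderm and trophoblast in the early embryo, and its transcript was at 88.2, 81.5 and 75.2 CPM across Nanog-null libraries, 15.4, 14.5 and 24.6 in the Esrrb libraries and 5.43, 4.83 and 4.45 in the Esrrb+Nanog libraries. The lines did not overlap and formed 3 steps. The fall was 4.51-fold from Nanog-null to Esrrb (log2 fold change -2.17 ± 0.17, adjusted p = 1.59e-06), 3.69-fold from Esrrb to Esrrb+Nanog (-1.88 ± 0.19, adjusted p = 0.000106) and 16.6-fold over both (-4.06 ± 0.19, adjusted p = 2.52e-08). The Fgfr2 gene model in GENCODE M21 (mm10, chromosome 7, 130162451 to 133123350, minus strand) shares 314 exon bases with Ctbp2 on the same strand. RefSeq places Fgfr2 from 130162451 to 130266808, so on the minus strand its start site is at 130266808. The GENCODE model extends upstream of that start. Ctbp2, looked at after this overlap was found, was at 411 ± 23.5, 501 ± 7.75 and 414 ± 5.70 CPM, so its level did not follow the 3 steps of Fgfr2. The part of shared reads in the result was not tested.

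Fgfr1, the main FGF receptor of the ES cell and epiblast state, had 94.1, 119 and 102 CPM across Nanog-null libraries, 98.2, 99.5 and 86.4 in the Esrrb libraries and 80.8, 90.4 and 89.8 in the Esrrb+Nanog libraries. Neighbouring lines overlapped, and only the Nanog-null and Esrrb+Nanog lines were apart. The log2 fold change was -0.15 ± 0.09 for Esrrb against Nanog-null (adjusted p = 0.197) and -0.12 ± 0.09 for Esrrb+Nanog against Esrrb (adjusted p = 0.416). The call for Esrrb+Nanog against Nanog-null (-0.27 ± 0.09, adjusted p = 0.0236) was lost without Nanog-null replicate 2 (-0.18, adjusted p = 0.110) and without Esrrb+Nanog replicate 1 (-0.23, adjusted p = 0.0804). Fgfr1 lies on chromosome 8, 25513654 to 25575718, plus strand.

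Per kilobase of exon, the 4 FGF receptor genes Fgfr1 to Fgfr4 summed to 20.8 ± 1.12 CPM per kilobase in the Nanog-null line, 13.6 ± 0.238 in the Esrrb line and 11.3 ± 0.397 for Esrrb+Nanog. The share of Fgfr2 in this sum was 38.0% ± 3.81, 13.0% ± 4.23 and 4.21% ± 0.411 in the same order (SD, n = 3). Fgfr1 took 50.9% ± 3.48, 70.7% ± 4.22 and 78.2% ± 5.22. With the length of the longest transcript in place of the exon union, the share of Fgfr2 was 44.1%, 16.2% and 5.38%. So the receptor pool went from a mixture of Fgfr1 and Fgfr2 to mostly Fgfr1, with the Fgfr1 level itself between 10.6 ± 1.27 and 8.81 ± 0.541 CPM per kilobase.

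**Figure D2:**
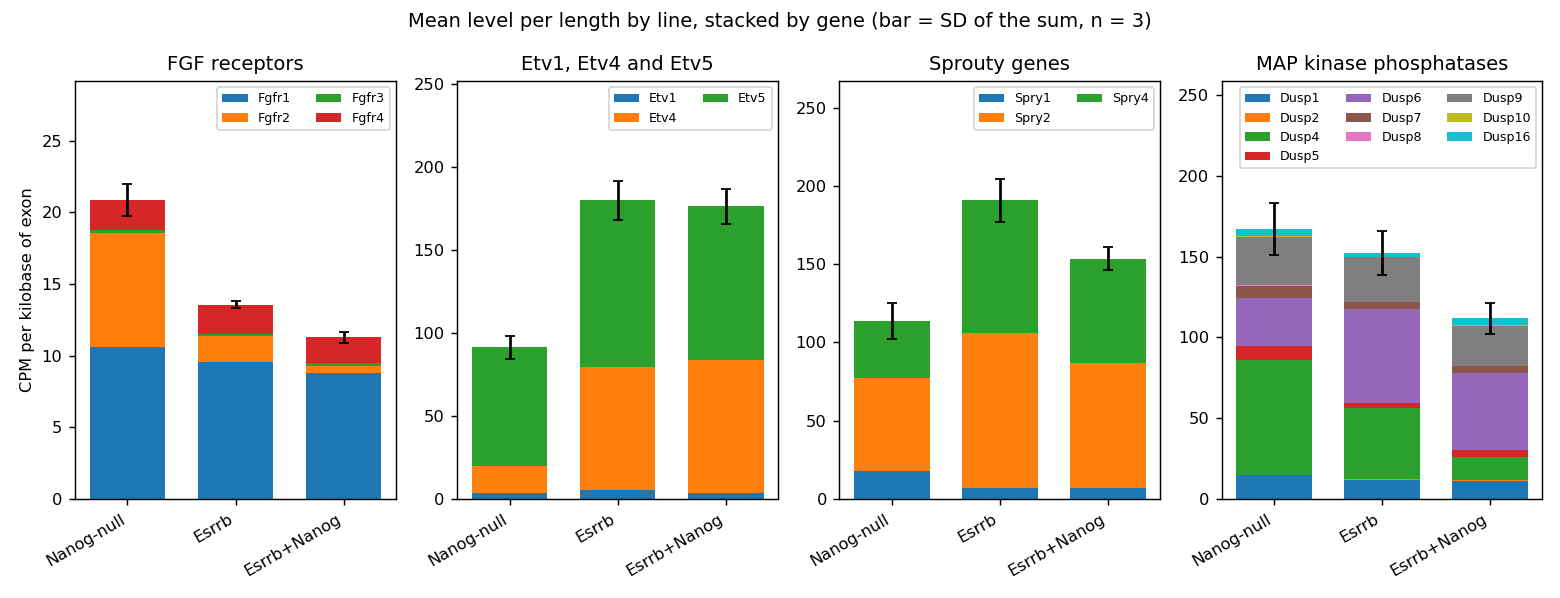
Mean level per length (CPM per kilobase of exon, vertical axis from 0) of 4 gene families in the 3 lines, stacked by gene; the error bar is the SD of the sum over 3 libraries. The Fgfr2 segment shrinks from 38.0% to 4.21% of the receptors, the Etv4 segment grows from 18.0% to 45.5% of Etv1, Etv4 and Etv5, and the Dusp4 segment shrinks from 42.6% to 13.0% of the phosphatases while that of Dusp6 grows from 17.8% to 42.7%.

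Both ETS factors of the set rose in the lines with Esrrb, by very different amounts. Etv4 had 55.5, 46.9 and 51.1 CPM across Nanog-null libraries, 204, 283 and 199 in the Esrrb libraries and 219, 289.9 and 241 in the Esrrb+Nanog libraries. Every library with Esrrb was above the Nanog-null libraries, and replicate 2 was the highest in both lines with Esrrb. The rise was 4.47-fold (log2 fold change 2.16 ± 0.14, adjusted p = 5.57e-07) in the Esrrb line and 4.88-fold (2.29 ± 0.14, adjusted p = 2.67e-07) for Esrrb+Nanog. The difference between those lines, 0.13 ± 0.14, did not pass the test (adjusted p = 0.587). Etv4 lies on chromosome 11, 101769742 to 101785371, minus strand.

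Etv5, the close relative of Etv4 that ES cells express at a high level, had 315, 273 and 292 CPM across Nanog-null libraries, 445, 392 and 402 in the Esrrb libraries and 376, 371 and 390.3 in the Esrrb+Nanog libraries. The 3 lines did not overlap, with the Esrrb line highest. The gene rose 1.41-fold in the Esrrb line (log2 fold change 0.49 ± 0.07, adjusted p = 0.000118) and 1.29-fold for Esrrb+Nanog (0.37 ± 0.07, adjusted p = 0.000736). Esrrb+Nanog against Esrrb gave -0.12 ± 0.07, which did not pass the test (adjusted p = 0.270) although the libraries did not overlap, as was the case for 31.6% of all tested genes in that comparison. Per kilobase, Etv1, Etv4 and Etv5 summed to 91.5 ± 6.94, 179.9 ± 11.6 and 176 ± 10.6 CPM per kilobase in the Nanog-null, Esrrb and Esrrb+Nanog lines. Etv4 made up 18.0% ± 0.155 of the sum in the Nanog-null line, 40.7% ± 6.05 in the Esrrb line and 45.5% ± 3.87 for Esrrb+Nanog, while Etv5 went from 78.3% ± 0.341 to 56.1% ± 5.50 and 52.5% ± 3.72.

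The Sprouty genes encode inhibitors that act between receptor and RAF, and they did not move as a family. Spry1 had 49.5, 53.8 and 53.5 CPM across Nanog-null libraries, 20.6, 22.0 and 19.4 in the Esrrb libraries and 19.3, 21.0 and 18.9 in the Esrrb+Nanog libraries. The Nanog-null libraries were all above the other 6, which overlapped among themselves. Spry1 fell 2.53-fold in the Esrrb line (log2 fold change -1.34 ± 0.08, adjusted p = 2.45e-07) and 2.65-fold for Esrrb+Nanog (-1.41 ± 0.08, adjusted p = 1.18e-07), and the lines with Esrrb differed by -0.07 ± 0.08 (adjusted p = 0.626). Spry1 (chromosome 3, 37639947 to 37644598, plus strand) shares 710 exon bases with Gm42922 on the other strand, which had 18 counts over all 9 libraries. The upstream window printed above for Spry1 also lies within the exon of that transcript.

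Spry2 moved the other way, with 120.3, 114 and 136 CPM across Nanog-null libraries, 188, 226 and 206 in the Esrrb libraries and 166, 156 and 178 in the Esrrb+Nanog libraries. No lines overlapped, and the Esrrb+Nanog libraries lay between the others. The rise to the Esrrb line was 1.68-fold (log2 fold change 0.74 ± 0.09, adjusted p = 3.40e-05), and the Esrrb+Nanog line was 1.35-fold above the Nanog-null line (0.43 ± 0.09, adjusted p = 0.00127). The fall from Esrrb to Esrrb+Nanog (-0.31 ± 0.09, adjusted p = 0.0357) was near the threshold. That call was lost with scaling by library totals alone (adjusted p = 0.0717) and without Esrrb replicate 2 (adjusted p = 0.0897) or 3 (0.0820) or Esrrb+Nanog replicate 1 (0.0823) or 2 (0.142). Spry2 lies on chromosome 14, 105891947 to 105896819, minus strand.

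Spry4 showed the same order of lines as Spry2. It had 185, 139 and 198 CPM across Nanog-null libraries, 372, 393 and 443 in the Esrrb libraries and 335, 301 and 318 in the Esrrb+Nanog libraries. The lines did not overlap, and Nanog-null replicate 2 was the lowest library. Spry4 rose 2.31-fold in the Esrrb line (log2 fold change 1.21 ± 0.11, adjusted p = 6.96e-06) and 1.83-fold for Esrrb+Nanog (0.87 ± 0.11, adjusted p = 5.76e-05). Esrrb+Nanog against Esrrb gave -0.34 ± 0.11 and missed the threshold (adjusted p = 0.0672); without Nanog-null replicate 2, which enters through the shared estimate of spread, it passed (-0.33, adjusted p = 0.0144), and with DESeq2 it also passed (adjusted p = 0.0314). Spry4 lies on chromosome 18, 38586247 to 38601415, minus strand. Per kilobase, Spry1, Spry2 and Spry4 summed to 114 ± 11.4, 191 ± 13.5 and 153 ± 7.38 CPM per kilobase. Spry2 held a near constant share of 52.0% ± 1.24, 51.9% ± 2.46 and 52.0% ± 1.65, while Spry1 went from 15.9% ± 1.89 to 3.74% ± 0.351 and 4.44% ± 0.482 and Spry4 from 32.0% ± 2.98 to 44.4% ± 2.65 and 43.6% ± 1.48.

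The phosphatases of the set moved in opposite directions. Dusp4, a nuclear phosphatase that removes the activating phosphates of ERK and other MAP kinases, had 181, 209 and 194 CPM across Nanog-null libraries, 129.9, 105 and 127 in the Esrrb libraries and 46.7, 42.0 and 30.7 in the Esrrb+Nanog libraries. As for Fgfr2, the lines formed 3 steps with no overlap, here with the larger step between the lines with Esrrb. The falls were 1.61-fold (log2 fold change -0.69 ± 0.13, adjusted p = 0.000973), 3.03-fold (-1.60 ± 0.13, adjusted p = 3.68e-05) and, over both steps, 4.89-fold (-2.29 ± 0.14, adjusted p = 1.82e-07). Dusp4 lies on chromosome 8, 34807297 to 34819894, plus strand.

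Dusp6, the cytoplasmic phosphatase selective for ERK, had 90.8, 87.1 and 99.9 CPM across Nanog-null libraries, 172, 216 and 158 in the Esrrb libraries and 144, 165 and 139.7 in the Esrrb+Nanog libraries. All 6 libraries with Esrrb were above the Nanog-null libraries and overlapped among themselves. Dusp6 rose 1.97-fold in the Esrrb line (log2 fold change 0.98 ± 0.11, adjusted p = 2.59e-05) and 1.61-fold for Esrrb+Nanog (0.69 ± 0.11, adjusted p = 0.000249), with -0.28 ± 0.11 between those lines (adjusted p = 0.110). In the sum of 10 MAP kinase phosphatase genes, 167 ± 16.1, 152 ± 13.6 and 112 ± 9.71 CPM per kilobase, the share of Dusp4 was 42.6% ± 1.28, 29.2% ± 5.44 and 13.0% ± 2.65 and that of Dusp6 was 17.8% ± 2.20, 38.0% ± 2.87 and 42.7% ± 0.239. Dusp4 was thus the leading phosphatase transcript of the Nanog-null line and Dusp6 that of both lines with Esrrb.

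**Figure D3:**
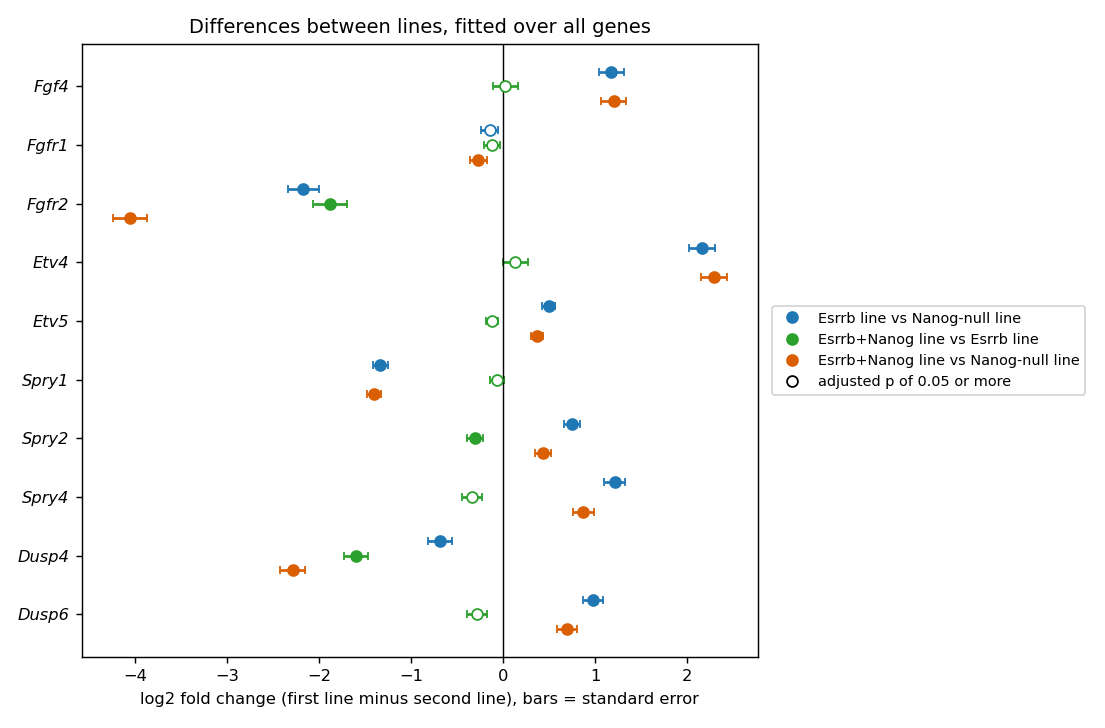
Log2 fold change (horizontal axis, first line minus second) of the 10 genes in the 3 comparisons between lines, with bars of 1 standard error; filled points have an adjusted p under 0.05. Fgfr2 and Dusp4 have filled points below 0 in all 3 comparisons, and the points for Esrrb+Nanog against Esrrb of the other 8 genes lie between -0.34 and 0.13.

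The plot of log2 fold changes puts the comparisons side by side. The 6 genes that rose in the Esrrb line had log2 fold changes between 0.37 and 2.29 in the Esrrb+Nanog line against Nanog-null. For Etv5, Spry2, Spry4 and Dusp6 the mean of the Esrrb+Nanog line was below that of the Esrrb line, and for Fgf4 and Etv4 it was above; among these 6 genes only the difference of Spry2 passed the test.

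Ranked by level per kilobase of exon, Etv5 led in every line, at 71.6 ± 5.14 CPM per kilobase in the Nanog-null line, 101 ± 6.78 in the Esrrb line and 92.4 ± 2.43 for Esrrb+Nanog. In the Nanog-null line Etv5 was followed by Dusp4 (71.0 ± 5.11), Spry2 (59.1 ± 5.51), Spry4 (36.6 ± 6.45), Dusp6 (29.6 ± 2.10), Fgf4 (22.1 ± 3.07), Spry1 (18.0 ± 0.837), Etv4 (16.5 ± 1.39), Fgfr1 (10.6 ± 1.27) and Fgfr2 (7.90 ± 0.629), all in CPM per kilobase. The libraries of Etv5 and Dusp4, of Spry4 and Dusp6, and of Spry1 and Etv4 overlapped, so the order within these pairs is not resolved. In the Esrrb line the levels after Etv5 were 99.0 ± 9.24 for Spry2, 84.7 ± 7.69 for Spry4, 73.7 ± 15.3 for Etv4, 58.1 ± 9.71 for Dusp6, 50.0 ± 9.48 for Fgf4, 44.0 ± 4.88 for Dusp4, 9.59 ± 0.729 for Fgfr1, 7.12 ± 0.447 for Spry1 and 1.76 ± 0.538 for Fgfr2. Each neighbour from Etv5 down to Dusp4 overlapped the next, and Fgfr1, Spry1 and Fgfr2 stood apart below them. In the Esrrb+Nanog line the levels per kilobase were 80.5 ± 11.7 for Etv4, 79.8 ± 5.54 for Spry2, 66.8 ± 3.57 for Spry4, 50.8 ± 4.95 for Fgf4, 47.8 ± 4.35 for Dusp6, 14.5 ± 3.01 for Dusp4, 8.81 ± 0.541 for Fgfr1, 6.79 ± 0.394 for Spry1 and 0.474 ± 0.0479 for Fgfr2. Etv5, Etv4 and Spry2 overlapped their neighbours there, as did Fgf4 and Dusp6. Etv4 moved from the lower part of the order in the Nanog-null line to the top group, and Dusp4 moved down. With the longest transcript as the length, Etv4 (104.4 CPM per kilobase) came before Etv5 (95.4) in the Esrrb+Nanog line, and Fgfr1 came before Dusp4 there (17.2 against 14.5).

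The other genes of the pathway were taken from 8 lists, of which the 10 genes are part: 108 genes, 98 of them tested. Between the Esrrb and Nanog-null lines 27 were higher and 33 lower (27.6% and 33.7% of those tested), where 24.2% of all tested genes were called in each direction. Between Esrrb+Nanog and Esrrb 7 and 15 were called (7.14% and 15.3%, where all genes had 5.43% and 7.75%), and between Esrrb+Nanog and Nanog-null 24 and 35 (24.5% and 35.7%, where all genes had 27.2% in each direction). The median log2 fold changes of the lists together were -0.07, -0.01 and -0.12, against 0.01, -0.01 and 0.002 over all tested genes. Without Nanog-null replicate 2 the counts were 29 and 31, 11 and 15, and 25 and 29. Those of Esrrb+Nanog against Esrrb were 3 and 10 without Esrrb replicate 1 and 4 and 10 without Esrrb+Nanog replicate 2. Fewer genes were called over all genes in these fits too, as without Esrrb replicate 3 (counts in the last section). Counts of any list from fits with a library left out thus cannot be set against the shares of all genes, which used every library.

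**Figure D4:**
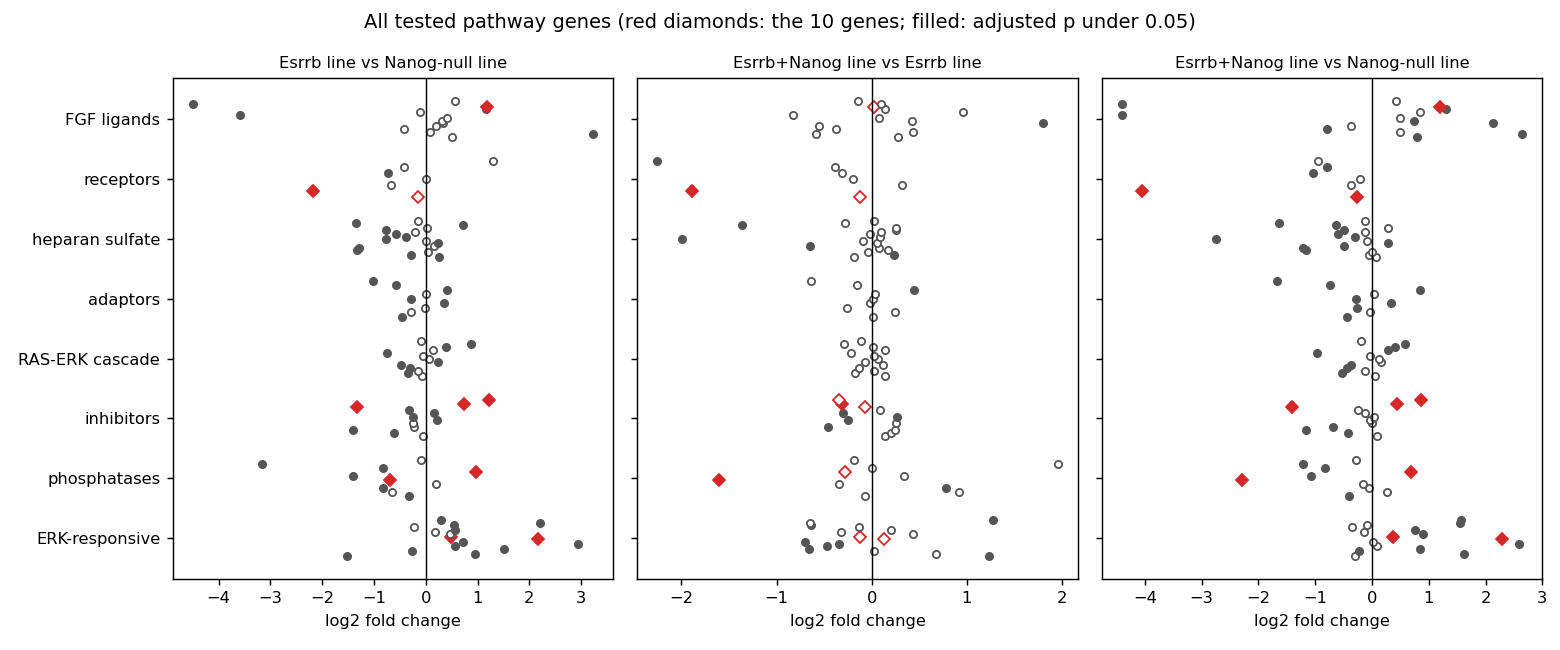
Log2 fold change (horizontal axis) of every tested gene of 8 FGF-ERK pathway lists (rows, with points spread vertically only to separate them) in the 3 comparisons; red diamonds are the 10 FGF-ERK genes and filled symbols have an adjusted p under 0.05. In the ERK-responsive row 11 of 16 genes were higher in the Esrrb line than in the Nanog-null line; the phosphatase row had 6 of 10 lower.

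In the plot of pathway genes the ERK-responsive list holds genes linked to ERK activity, not all of them through their transcription. Of its 16 tested genes 11 were higher and 2 lower in the Esrrb line than in the Nanog-null line. These were 68.8% and 12.5%, where all genes had 24.2% in each direction, and the median log2 fold change over the 16 was 0.55. Etv4 and Etv5 are in this list, while the Sprouty and DUSP genes, also raised by ERK, are in the inhibitor and phosphatase lists. Of those among the members, Spry2, Spry4 and Dusp6 were higher in the Esrrb line and Spry1 and Dusp4 lower. The counts of this list thus depend on how the lists were divided. Epha4, an ephrin receptor, went from 46.6 ± 5.80 CPM to 355 ± 9.56 CPM (log2 fold change 2.93 ± 0.09, adjusted p = 1.81e-09). Phlda1, an immediate early gene, went from 2.13 ± 0.921 to 9.90 ± 2.27 CPM (2.20 ± 0.27, adjusted p = 5.17e-05). Ccnd1, the cyclin D1 gene, fell from 34.1 ± 4.12 to 11.8 ± 0.705 CPM (-1.53 ± 0.31, adjusted p = 0.00179). Between Esrrb+Nanog and Esrrb 2 genes of the list were higher and 5 lower (12.5% and 31.3%, where all genes had 5.43% and 7.75%). Spp1, the osteopontin gene, rose to 445 ± 21.2 from 184 ± 6.41 CPM (1.27 ± 0.06, adjusted p = 5.11e-07), and Etv1, the third relative of Etv4 and Etv5, fell from 74.6 ± 11.8 to 45.9 ± 1.32 CPM (-0.70 ± 0.11, adjusted p = 0.00231). The higher call of Ccnd1 in that comparison (1.23 ± 0.31, adjusted p = 0.0246) was lost without Esrrb replicate 1 or 3, and the change was 0.60 without Esrrb+Nanog replicate 3. Against the Nanog-null line the Esrrb+Nanog line had 9 genes of the list higher and 1 lower (56.3% and 6.25%, where all genes had 27.2% in each direction). Among the higher genes was Egr1, an immediate early transcription factor, at 41.9 ± 10.6 against 13.4 ± 4.23 CPM (1.63 ± 0.22, adjusted p = 6.98e-05).

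Of the 10 phosphatases, Dusp6 was the 1 gene higher in the Esrrb line, and 6 were lower (10.0% and 60.0%, where all genes had 24.2% in each direction); the median log2 fold change over the 10 was -0.67. The lower call of Dusp1, a stress-inducible phosphatase named here after its values were seen (adjusted p = 0.0446) was lost without Nanog-null replicate 2 or 3, any of the Esrrb replicates or Esrrb+Nanog replicate 2. Beside Dusp4, Dusp5 fell from 22.0 ± 7.46 to 8.29 ± 0.459 CPM (-1.41 ± 0.19, adjusted p = 0.000101) and Dusp7, like Dusp6 an ERK-selective phosphatase, from 25.3 ± 1.72 to 14.2 ± 1.90 CPM (-0.84 ± 0.10, adjusted p = 5.65e-05). Between Esrrb+Nanog and Esrrb the list had 1 gene higher, Dusp16 (31.9 ± 2.59 against 18.6 ± 1.92 CPM, 0.78 ± 0.10, adjusted p = 0.000544), and 1 lower, Dusp4. Each was 10.0% of the list, where all genes had 5.43% higher and 7.75% lower. Without Nanog-null replicate 2 the counts of that comparison were 4 and 1. Between Esrrb+Nanog and Nanog-null 1 phosphatase was higher and 5 were lower (10.0% and 50.0%, where all genes had 27.2% in each direction). Without that replicate the counts were 2 and 3.

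Of the 12 inhibitors, the 3 Sprouty genes among them, 4 were higher and 5 lower in the Esrrb line (33.3% and 41.7%, where all genes had 24.2% in each direction). Among the higher calls, that of Rasa1, a GTPase-activating protein of RAS (adjusted p = 0.0328), was lost without Nanog-null replicate 2 or 3 or Esrrb replicate 1 or 3. When single libraries were left out, that of Spred2, a relative of the Sprouty genes (adjusted p = 0.0449), held only without Esrrb replicate 3 or Esrrb+Nanog replicate 2. Il17rd, also called Sef, a membrane inhibitor of FGF signalling that ERK activity is known to induce, fell from 119 ± 7.74 to 45.0 ± 10.6 CPM (-1.41 ± 0.16, adjusted p = 2.20e-05) and was at 53.1 ± 8.34 CPM in the Esrrb+Nanog line. It thus had the direction of Spry1 and not of Spry2 or Spry4. Errfi1, an inhibitor of EGF receptors, fell from 35.0 ± 3.65 to 22.8 ± 1.20 CPM (-0.62 ± 0.10, adjusted p = 0.000330). Without Nanog-null replicate 2 the list had 2 higher and 4 lower. Against Nanog-null the Esrrb+Nanog line had 2 higher and 4 lower (16.7% and 33.3%, where all genes had 27.2% in each direction). Between Esrrb+Nanog and Esrrb 1 inhibitor was higher and 4 lower (8.33% and 33.3%, where all genes had 5.43% and 7.75%). The counts were 0 and 2 without Esrrb replicate 1, 1 and 2 without Esrrb replicate 3 and 0 and 1 without Esrrb+Nanog replicate 2.

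In the RAS-ERK cascade, here from RAS to the kinases that ERK activates, 3 of 13 genes were higher and 4 lower in both lines with Esrrb against Nanog-null (23.1% and 30.8%, where all genes had 24.2% in each direction for the Esrrb line and 27.2% for Esrrb+Nanog). Mapk3, which encodes ERK1, fell from 158 ± 9.71 to 94.4 ± 5.88 CPM in the Esrrb line (-0.75 ± 0.06, adjusted p = 3.87e-06) and was at 81.5 ± 0.498 CPM in the Esrrb+Nanog line. Rps6ka1, encoding the ERK-activated kinase RSK1, rose from 169 ± 2.76 to 309.8 ± 53.5 CPM (0.87 ± 0.11, adjusted p = 5.00e-05). Between Esrrb+Nanog and Esrrb 0 of the 13 passed edgeR's test, where 13.2% of all genes did. At an unadjusted p under 0.05 there were 1 higher and 2 lower, and DESeq2 called 1 lower. Leaving out Esrrb replicate 2 or Esrrb replicate 3 gave 1 lower call by edgeR. Mapk3 had the change nearest to a call there (-0.21 ± 0.07, adjusted p = 0.0510). Of 9 adaptors, which link receptors to RAS, 2 were higher and 4 lower in the Esrrb line (22.2% and 44.4%, against the same 24.2% of all genes). For Esrrb+Nanog against Nanog-null these counts were 2 and 5 (22.2% and 55.6%, where all genes had 27.2% in each direction). In the step from Esrrb to Esrrb+Nanog 1 adaptor was higher and 0 lower (11.1% and 0%, where all genes had 5.43% and 7.75%). That call was lost without Esrrb replicate 1 or 3 or Esrrb+Nanog replicate 2, and 1 adaptor was lower without Esrrb replicate 2 or Esrrb+Nanog replicate 1 or 2; at an unadjusted p under 0.05 there were 1 higher and 3 lower, and DESeq2 called 1 and 1. The exchange factor genes Sos1 and Sos2 fell by 0.58 and 1.02 on the log2 scale in the Esrrb line (adjusted p = 5.17e-05 and 0.00127).

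Outside the cell, FGFs need heparan sulfate to bind their receptors. Of 17 genes that make, carry or trim it 3 were higher and 8 lower in the Esrrb line (17.6% and 47.1%, where all genes had 24.2% in each direction). For Esrrb+Nanog against Nanog-null the counts were 1 and 9 (5.88% and 52.9%, where all genes had 27.2% in each direction). Sulf1, which removes sulfate groups, fell from 120.5 ± 6.37 to 47.1 ± 6.88 CPM (-1.36 ± 0.12, adjusted p = 3.42e-06), and Gpc1, a core protein of the cell surface, from 60.4 ± 7.68 to 24.1 ± 0.373 CPM (-1.33 ± 0.11, adjusted p = 2.45e-06). Sdc4, another core protein, rose to 144 ± 6.93 CPM from 87.4 ± 5.26 (0.72 ± 0.07, adjusted p = 1.02e-05) and was at 56.1 ± 4.37 CPM in the Esrrb+Nanog line (-1.37 ± 0.07 against Esrrb, adjusted p = 8.68e-07). Hs6st2, a sulfotransferase, had levels of 12.1 ± 1.07, 7.17 ± 1.79 and 1.81 ± 0.535 CPM and fell between Esrrb and Esrrb+Nanog (-1.99 ± 0.23, adjusted p = 0.000331), as Fgfr2 and Dusp4 did. In that comparison 1 gene of the list was higher and 3 lower (5.88% and 17.6%, where all genes had 5.43% and 7.75%). The counts were 0 and 2 on leaving out any of Nanog-null replicate 3, Esrrb replicates 1 and 3 and Esrrb+Nanog replicates 1 and 2. They were 0 and 5 without Esrrb replicate 2 and 0 and 3 without Esrrb+Nanog replicate 3. So the call of the higher gene, the heparan sulfate polymerase gene Ext2, was lost in each of these fits (adjusted p = 0.0458 with all libraries).

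Of 7 tested receptors and co-receptors 2 were lower in the Esrrb line and 4 in the Esrrb+Nanog line against Nanog-null (28.6% and 57.1%, where all genes had 24.2% and 27.2%). No receptor was called higher in these or the third comparison by edgeR, at an unadjusted p under 0.05 or by DESeq2, but 1 was higher in the Esrrb line without Nanog-null replicate 2, and 1 higher and 3 lower without Esrrb replicate 2. From Esrrb to Esrrb+Nanog 2 were lower (28.6%, where 7.75% of all genes were). Only 1 was lower on leaving out any of Nanog-null replicate 3, Esrrb replicates 1 and 3 and the 3 Esrrb+Nanog replicates. Beside Fgfr2 the lower genes included the receptor-like gene Fgfrl1, which fell from 20.2 ± 1.82 to 12.2 ± 0.939 CPM in the Esrrb line (-0.72 ± 0.12, adjusted p = 0.000332).

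The FGF ligand list took FGF family genes by name, Fgf11 to Fgf14 among them, so not every entry is a receptor ligand. Of its 14 tested genes 3 were higher and 2 lower for Esrrb against Nanog-null. These were 21.4% and 14.3%, below the 24.2% of all genes in each direction. For Esrrb+Nanog against Nanog-null 6 were higher and 3 lower (42.9% and 21.4%, where all genes had 27.2% in each direction). For Esrrb+Nanog against Esrrb 1 gene of the list was higher (7.14%, where 5.43% of all genes were), and 2 without Esrrb replicate 2. Fgf4 made up 73.7% ± 4.25 of the transcripts of the whole list per kilobase in the Nanog-null line. Its share was 86.7% ± 3.66 in the Esrrb line and 84.4% ± 1.06 for Esrrb+Nanog. Fgf5, a marker of the primed epiblast picked out after its values were seen, was at 2.71 ± 1.12, 0.117 ± 0.111 and 0.124 ± 0.110 CPM and had the opposite direction to Fgf4 (adjusted p = 7.41e-05 for Esrrb against Nanog-null, log2 fold change -4.50 ± 0.58). The 3 Esrrb libraries held 10 Fgf5 counts in all, and the change was -5.58 without Esrrb replicate 1.

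For each member the gene with the most similar pattern over the 9 libraries was found among 10129 genes, by the root-mean-square difference of log2 CPM after centring each gene. The libraries fall into 3 lines, so such a likeness rests mostly on 3 means. The nearest genes were Zfp459 to Fgf4, Mapk8ip1 to Fgfr1, Platr14 to Fgfr2, F2rl1 to Etv4, Fbxo8 to Etv5, Dlg4 to Spry1, Ubxn2a to Spry2, Tdgf1 to Spry4, Sox13 to Dusp4 and Zbtb7b to Dusp6. The difference ran from 0.05 log2 units for Fgfr1 to 0.27 for Fgfr2. None of the 10 members was nearest to another member.

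Markers of other cell types differed between the lines beside these results. The 13 primitive endoderm markers summed to 512 to 802 CPM across Nanog-null libraries, 410.1 to 544 in the Esrrb libraries and 560 to 688 in the Esrrb+Nanog libraries. Gata6, the factor that defines primitive endoderm, averaged 3.66, 25.2 and 6.90 CPM in that order of lines. Of 12 tested markers of that list 5 were higher and 3 lower in the Esrrb line than in the Nanog-null line, where all genes had 24.2% in each direction. Gata6, Pdgfra, Sox7, Lama1 and Col4a1 were higher, while Dab2 (11.9, 4.73 and 2.02 CPM), Lamb1 (166, 65.2 and 57.4 CPM) and Lrp2 (329, 84.7 and 97.8 CPM) were lower, as Fgfr2 was. Without Nanog-null replicate 2, 7 of 13 tested markers were higher and 3 lower. Lama1 averaged 43.6, 136 and 356 CPM, and with Lrp2 and Lamb1 it made up most of the sum in each line. From Esrrb to Esrrb+Nanog 1 marker was higher and 4 lower (8.33% and 33.3%, where all genes had 5.43% and 7.75%). When a library was left out, 1 to 6 were lower. The 9 trophoblast markers summed to 101.0 to 251 CPM across Nanog-null libraries, 36.8 to 63.7 in the Esrrb libraries and 49.8 to 57.4 in the Esrrb+Nanog libraries, a fall that went in the direction of Fgfr2, Spry1 and Dusp4. Of 8 tested trophoblast markers 6 were lower in the Esrrb line, where 24.2% of all genes were. None was higher by edgeR; at an unadjusted p under 0.05 there were 0 higher and 6 lower, and DESeq2 called 0 and 5. Most of the summed level was that of Krt8 (40.0, 6.75 and 13.7 CPM), Krt18 (57.0, 7.28 and 7.86 CPM) and Tfap2c (50.2, 21.8 and 19.4 CPM). Of the defining trophoblast factors, Eomes was at 8.22, 7.64 and 9.26 CPM and did not pass the test (adjusted p = 0.506 for Esrrb against Nanog-null). Cdx2 averaged 0.714, 0.310 and 0.346 CPM, and its lower call (adjusted p = 0.0488) was lost without Nanog-null replicate 2 or 3, any of the Esrrb replicates or Esrrb+Nanog replicate 2. Elf5 had no reads in the Esrrb libraries, 0.0874 CPM in the Nanog-null line and 0.0525 CPM for Esrrb+Nanog. The 8 fibroblast markers summed to 18.5 to 89.3, 13.0 to 17.8 and 15.8 to 20.03 CPM. Nanog-null replicate 2 had the highest sum of its line for these 3 lists. In that replicate Fgf4, Etv4, Etv5, Spry2, Spry4 and Dusp6 were the lowest of their line and Fgfr1, Spry1 and Dusp4 the highest. Fgfr2 lay between replicates 1 and 3. Without that replicate 9 members were called for Esrrb against Nanog-null, as with all libraries. For Esrrb+Nanog against Esrrb 4 were called (3 with all libraries), and for Esrrb+Nanog against Nanog-null 9 (10 with all libraries). The part of such cells in the results was not tested.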

How the data were processed

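Per the labels' protocols, RNA was extracted from sorted cells, treated with DNase, depleted of ribosomal RNA and made into NEBNext Ultra II libraries. Per the submitters' processing notes, the tools were bcl2fastq 2.19.1 and STAR 2.5.3a, with mm10 as the genome build. How reads were counted, and whether by strand, is not given in the sources used here; reads of genes that overlap on opposite strands cannot be told apart. The deposited values are whole-number counts per Ensembl gene, with no scaling by the authors; 9 columns matched the samples by title and 6 other columns were not used here. Symbols and positions came from GENCODE M21 (52489 of 52636 IDs found), promoter windows from RefSeq.

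All 9 libraries entered 1 fit of edgeR 4.0.16 in R 4.3.3 (quasi-likelihood, line as the only term, trimmed mean of M values scaling, default low-count filter), with limma 3.58.1 and, as an alternative, DESeq2 1.42.0. P-values were adjusted over 16198 genes by the Benjamini-Hochberg method, threshold 0.05. CPM carry no pseudocount, and log2 CPM for pattern likeness used a prior count of 2. Standard errors are the absolute log2 fold change divided by the square root of F. Levels per kilobase use the union of a gene's exons. Counts set the precision of each value; replicate spread is used as the error. A single-gene exact test of 3 against 3 libraries could not go below p = 0.1, so none was used.

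The 10 genes, the pathway lists and the marker lists were chosen with earlier results of these data known. Of 146 list entries 145 were matched to IDs. Beside the members and markers, the text names, per list, comparison and direction, up to 2 other called genes with the largest change whose replicates do not overlap and that reach 5 CPM in the higher line; genes outside this rule are said to be so chosen. Other scalings, filters, DESeq2, a replicate block, fits of 2 lines and leaving out each library were tried. The model was tested on simulated data.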

Additional observations from a re-analysis of the deposited data

How the results depend on the processing

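Of 30 member comparisons (10 genes in 3 comparisons), 25 kept their direction and their side of the threshold under all 16 alternatives; of 480 values, 465 did, 7 lost a call, 6 gained one and 2 changed sign. The changes of sign were those of Fgf4 for Esrrb+Nanog against Esrrb, whose log2 fold change was 0.02 with all libraries, -0.13 without Esrrb replicate 2 and -0.06 without Esrrb+Nanog replicate 3, with a range of -0.13 to 0.12 over all left-out libraries. In that comparison 3 members were called, 5 with no low-count filter (Spry4, adjusted p = 8.02e-05, and Dusp6, adjusted p = 0.00440, were added) and 2 to 4 when a library was left out. Genes called there numbered 2135, and 1105 to 2374 when a library was left out: 1105 without Esrrb replicate 1, 1378 without Esrrb replicate 3 and 1215 without Esrrb+Nanog replicate 2. Other causes of these changes were not tested; fewer libraries entered each of those fits.

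Replicate numbers did not pair the libraries throughout. Of 9 same-numbered pairs between lines, 3 had a correlation of deviations above 0.1, with values from -0.02 to 0.28. The value of 0.28, for replicate 2 of the lines with Esrrb, was the highest of all pairs between lines, and 4 of 9 libraries were closest to their own number. Whether same-numbered libraries were handled together was not tested. With the replicate number as a block, genes called were 7997, 2381 and 8946 for Esrrb against Nanog-null, Esrrb+Nanog against Esrrb and Esrrb+Nanog against Nanog-null (7849, 2135 and 8816 without it), and members called were 9, 4 and 10; Spry4 passed in the second (adjusted p = 0.0298). Lengths of the longest transcript moved 13 of 30 levels per kilobase by more than the SD of the replicates. List counts without Nanog-null replicate 2 were added after seeing the data.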
